A study of Mus musculus with 12 samples.

Results

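The cartilage and bone genes described here are 35 genes of the skeletal lineages, found in all 12 libraries among 38986 listed genes. They were chosen by symbol, with earlier results of these data known. They fall into 16 chondrocyte genes, 4 genes of hypertrophic cartilage, 12 genes of osteoblasts and osteocytes and 3 genes of osteoclasts. The libraries were made from teratomas, tumours of mixed tissues that form when mouse embryonic stem (ES) cells are placed in a host. R1 mouse ES cells carrying a lentiviral pEZ-Lv235 vector with a CAG promoter, which is active in most cell types, were placed under the skin of 8-week-old male immunodeficient NOD-PrkdcEM1 mice, and the tumours were taken at day 21. Every group shared the parental line, the vector and the host. Before injection the cells of all groups were cultured in serum medium with leukemia inhibitory factor (LIF). The ET group carried the empty vector and served as control, the WT group overexpressed wild-type Dnmt3L, a catalytically inactive cofactor of the de novo DNA methyltransferases, and the other groups were labelled as carrying Dnmt3L with K238R or K412R, in each of which 1 lysine, a site of acetylation, was changed to arginine. Each group had 3 libraries, 1 from each of 3 teratomas. The cells were antibiotic-selected pools, and the bulk tumour RNA includes host stroma and vessels. More than 1 pool per construct is not described for these tumours. A difference between constructs therefore cannot be told apart from a difference between cell pools.

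Cartilage forms when mesenchymal cells turn on Sox9 and its partners Sox5 and Sox6, which drive the collagens and proteoglycans of the matrix. Chondrocytes that enlarge switch to type X collagen and matrix-degrading enzymes, and osteoblasts under Runx2 and Sp7 then lay down type I collagen and mineral-binding proteins. Osteoclasts, multinucleate cells of the macrophage lineage, resorb cartilage and bone with acid, cathepsin K and phosphatase.

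The 250 bases before the transcription start of Bglap, Spp1, Mmp13 and Ibsp are shown as examples, chosen after their values were seen. Bone cells express these genes, Mmp13 being on the hypertrophic list, and Runx2 and its relatives bind the core motif TGTGGT. The sequences were taken from RefSeq on build GRCm38.p6, in which 28 of the 35 genes had an entry, and read 5′ to 3′ on the strand of the gene, with each match to TGTGGT or its complement ACCACA in capitals.
Bglap, chr3:88384467-88384716, minus strand: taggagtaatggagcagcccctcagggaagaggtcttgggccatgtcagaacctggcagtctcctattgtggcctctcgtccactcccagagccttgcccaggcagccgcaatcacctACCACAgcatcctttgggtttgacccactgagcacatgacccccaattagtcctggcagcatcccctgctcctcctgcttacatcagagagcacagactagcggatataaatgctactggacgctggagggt
Spp1, chr5:104434861-104435110, plus strand: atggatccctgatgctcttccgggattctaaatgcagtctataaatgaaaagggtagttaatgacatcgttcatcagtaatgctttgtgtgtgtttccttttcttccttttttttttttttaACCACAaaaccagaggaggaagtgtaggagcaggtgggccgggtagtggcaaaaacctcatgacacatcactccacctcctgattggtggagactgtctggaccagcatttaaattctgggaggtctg
Mmp13, chr9:7272264-7272513, plus strand: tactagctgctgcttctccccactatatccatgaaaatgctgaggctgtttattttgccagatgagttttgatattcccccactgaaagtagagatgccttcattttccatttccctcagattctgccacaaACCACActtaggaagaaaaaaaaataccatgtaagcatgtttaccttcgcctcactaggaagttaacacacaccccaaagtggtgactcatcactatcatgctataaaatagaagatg
Ibsp, chr5:104299037-104299286, plus strand: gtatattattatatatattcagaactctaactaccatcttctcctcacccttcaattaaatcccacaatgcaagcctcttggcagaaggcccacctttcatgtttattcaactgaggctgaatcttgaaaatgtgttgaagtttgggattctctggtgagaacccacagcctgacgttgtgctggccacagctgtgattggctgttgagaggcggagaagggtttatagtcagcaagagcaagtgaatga
The match began 132 bases before the start in Bglap, 128 in Spp1 and 118 in Mmp13, and the window of Ibsp held none. Spp1 had a further start, whose window (chr5:104435942-104436191) held no match and is not shown. Other bone genes described in detail below also had entries that are not shown. The window of Runx2 held a match, that of Col1a2 held none, and Dmp1 had a match in only 1 of its windows. Among all 27025 genes with such a window, 15.9% held the motif in at least 1 of their windows, against 8 of the 28 cartilage and bone genes (28.6%) and 4 of the 9 osteoblast and osteocyte genes with an entry. A match is a run of letters and not a measured binding site.

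Libraries held 16957677 to 18546100 estimated reads, and replicates of a group differed by more than counting noise (chi-square per degree of freedom 8.10 to 39.2 over 12 pairs). Dnmt3l was at 2.22, 0.649 and 7.62 CPM (the count scaled to a library total of 1000000) in ET and at 165, 203 and 204 CPM in WT. It was at 38.9, 38.3 and 26.0 CPM in K412R, but at 1.89, 1.11 and 0.543 CPM in the libraries labelled K238R, which is at or below the levels of ET. Each direction given for the libraries labelled K238R therefore rests on a label that the Dnmt3l level goes against. Every K412R library held less Dnmt3l transcript than every WT library. In K412R vs WT the changed lysine and the amount of transcript therefore cannot be told apart. The word mutant is used below for the libraries labelled K238R and K412R, by their labels alone. Within ET the pairs with replicate 2 differed most (19.5 and 39.2, against 10.9 for the pair without it), within WT the pairs with replicate 1 (17.7 and 19.8, against 8.10), and among the libraries labelled K238R the pairs with replicate 2 (23.2 and 22.8, against 9.21). Gm26917, an RNA that took 7.47% to 13.9% of the counts, is part of every library total.

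The genes of skeletal tissue were present, but the most specific markers of mature cartilage were near the limit of detection. A count of 3 corresponds to 0.162 to 0.177 CPM. Matn1, a matrix protein of mature cartilage, reached at most 0.285 CPM and was at 0 in 3 libraries, Epyc, a small proteoglycan of the growth plate, reached at most 0.57 CPM, and Matn3 reached at most 1.08 CPM. Comp, the cartilage oligomeric matrix protein, lay between 0.38 and 2.34 CPM. Of the 16 chondrocyte genes 14 had counts in every library, as had all 4 hypertrophic genes, 10 of the 12 osteoblast and osteocyte genes and all 3 osteoclast genes. The chondrocyte label therefore rests on genes such as Col2a1, Sox5, Sox6, Col9a1 and Col11a1, several of which are also expressed in neural tissue, and it is used here as the name of a list. After the filter on low counts 31 of the 35 genes were tested, and Matn1, Matn3, Epyc and Bglap2 were not.

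**Figure D1:**
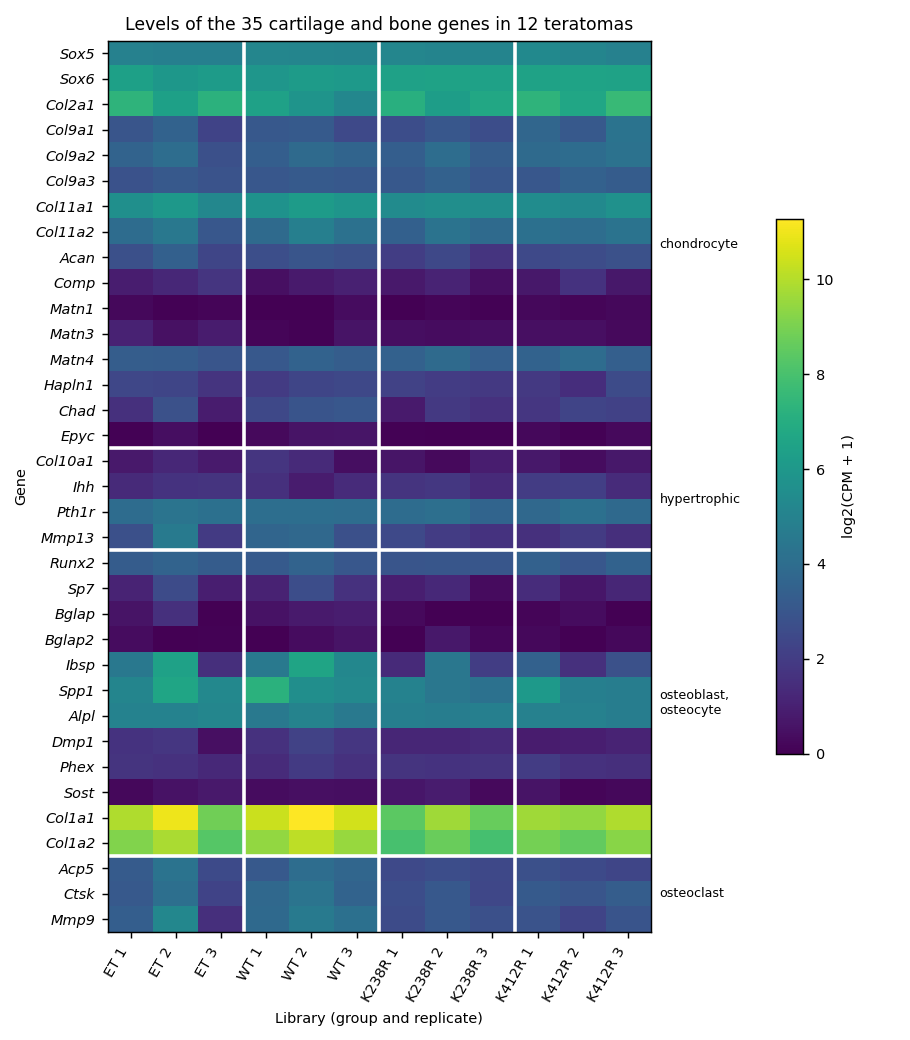
Heat map of the level of each of the 35 genes, as log2(CPM + 1), with 1 row per gene grouped by lineage and 1 column per library grouped by ET, WT, K238R and K412R. Ibsp, Col1a1, Col1a2 and the 3 osteoclast genes were brightest in ET replicate 2 and WT replicate 2 and darker in ET replicate 3 and the libraries labelled K238R, while Matn1, Epyc and Bglap2 were dark throughout.

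None of the 31 tested genes passed the adjusted threshold of 0.05 in edgeR's quasi-likelihood test in any of the 5 comparisons. Few genes of any kind did: the share called among all 18405 tested genes was 0.0489% in WT vs ET, 0.174% in K238R vs WT, 2.02% in K412R vs WT, 0% in K238R vs ET and 0% in K412R vs ET. At an unadjusted p under 0.05 more of the 31 genes lay below WT than above it for both mutants. Against WT, in the libraries labelled K238R, 13 of the 31 were lower and 2 were higher, where 9.64% of all genes were lower and 7.93% higher. In K412R against WT, 8 were lower and 3 higher, where the shares of all genes were 12.5% and 10.2%. Leaving out 1 library moved these counts to between 7 and 15 lower in K238R vs WT, with 7 without WT replicate 2 and 8 without K238R replicate 3. In K412R vs WT it moved them to between 3 and 10 lower, beside 3 to 4 higher, with 3 lower without WT replicate 2 or without K412R replicate 2 and 5 without K412R replicate 1. The median log2 fold change of the 31 was -0.50 in K238R vs WT and -0.35 in K412R vs WT, while that of all tested genes was 0.00 and 0.01.

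Against ET fewer of the 31 genes were lower for both mutants, and the shares of all genes were smaller too. In the libraries labelled K238R against ET, 8 of the 31 were lower and 1 was higher, with 3.08% and 2.50% of all genes, and in K412R against ET 2 were lower and 4 higher, with 3.48% and 4.37% of all genes. Leaving out 1 library gave 2 to 13 lower genes in K238R vs ET, with 2 without ET replicate 2 or K238R replicate 3, 5 without K238R replicate 1 and 13 without ET replicate 3. In K412R vs ET it gave 1 to 6 lower and 1 to 7 higher, with 1 lower and 7 higher without ET replicate 2, and 6 lower and 1 higher without ET replicate 3. In WT against ET 2 were lower and 1 was higher, while 15.1% of all genes were lower and 14.0% higher, so that the share among the cartilage and bone genes did not exceed that of all genes. Without ET replicate 2 the latter counts were 2 lower and 10 higher. Median log2 fold changes of the 31 were 0.19 in WT vs ET, -0.32 in K238R vs ET and -0.22 in K412R vs ET. The comparisons share the WT or the ET libraries and are not separate evidence of a direction.

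DESeq2, which estimates the spread of each gene differently, called 1 gene in WT vs ET (Col2a1, lower), 5 in K238R vs WT (Acp5, Chad, Col1a1, Col1a2 and Ctsk, all lower), 5 in K412R vs WT (Col2a1 and Sox6 higher, Acp5, Dmp1 and Mmp13 lower), 0 in K238R vs ET and 1 in K412R vs ET (Mmp13, lower). The corresponding shares of all genes with an adjusted p were 10.5%, 4.13%, 9.26%, 0.0467% and 0.506%. For K238R vs ET, edgeR gave 9 genes at an unadjusted p under 0.05 and DESeq2 gave 9 as well.

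The result turned on single libraries. Without ET replicate 2, edgeR called 9 genes in WT vs ET, with Chad, Col11a1, Col1a1, Col1a2, Ctsk, Mmp13 and Mmp9 higher and Col2a1 and Matn3 (which passed the filter in that fit) lower, and 31.0% of all tested genes were called in that fit. The same fit called 6 genes in K238R vs WT, all lower (Acp5, Chad, Col1a1, Col1a2, Ctsk and Mmp13), beside 4.30% of all genes. In K412R vs WT it called 5 (Col2a1 and Sox6 higher, Acp5, Mmp13 and Mmp9 lower), beside 8.20% of all genes. Leaving out ET replicate 3 gave 1 call in K238R vs WT (Col1a2) and 2 in K412R vs WT (Dmp1 and Mmp13), beside 0.665% and 3.72% of all genes, and leaving out WT replicate 1 gave 1 call in WT vs ET and 1 in K412R vs WT (Col2a1 in both), beside 6.93% and 5.37%. Leaving out any of the remaining 9 libraries gave 0 calls in each comparison.

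**Figure D2:**
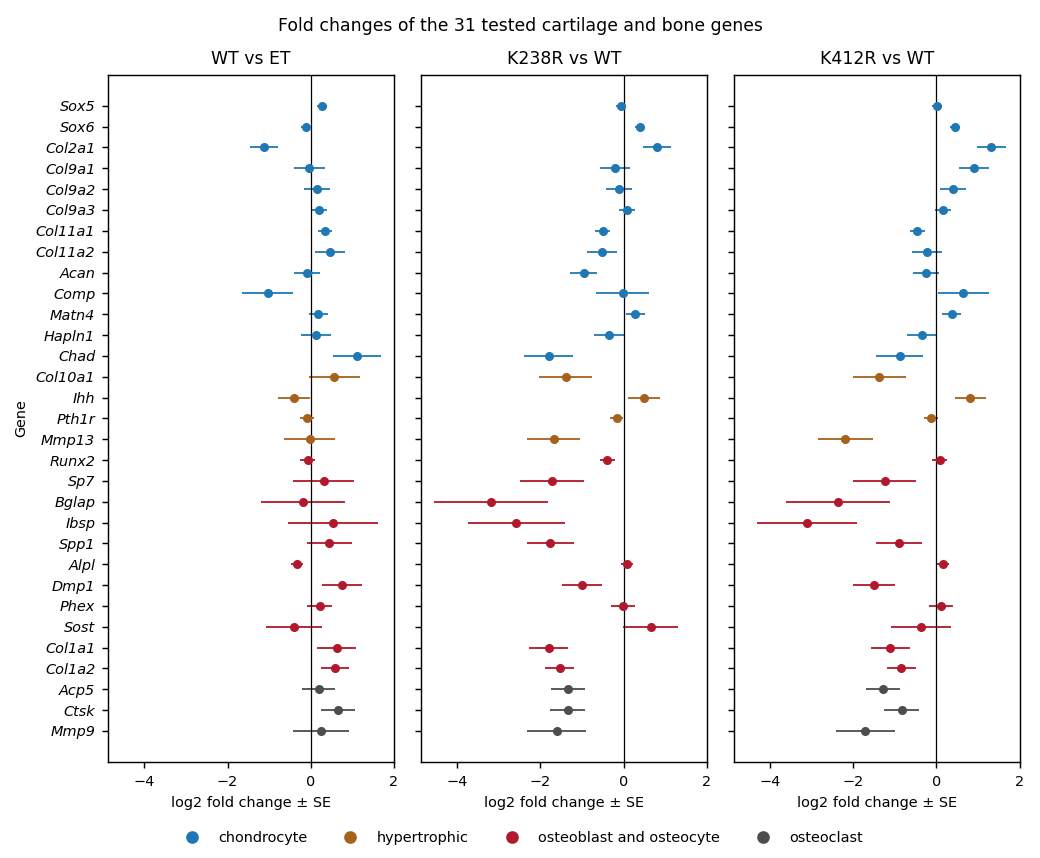
Log2 fold changes of the 31 tested genes with their standard errors in WT vs ET, K238R vs WT and K412R vs WT, 1 line per gene, coloured by lineage, with the vertical line at no change. In both mutant comparisons the osteoclast genes and most of the osteoblast genes lie left of the line, Col2a1 and Sox6 lie right of it, and none of the points passed the adjusted threshold.

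The bone genes varied widely between tumours. Ibsp encodes bone sialoprotein, a mineral-binding protein of new bone matrix. Its level was 21.8, 85.7 and 1.89 CPM in ET, 22.2, 94.3 and 36.4 CPM in WT, 1.56, 21.4 and 3.09 CPM in the libraries labelled K238R and 10.2, 1.92 and 5.84 CPM in K412R. The highest library was thus 60.3 times the lowest, ET spanned nearly that whole range, and the mutant libraries lay below all WT libraries, in the case of K238R replicate 2 only just. Such separations of groups are given for single genes here and below, and their share among all genes was not counted. The log2 fold change was -2.58 ± 1.17 (SE) in K238R vs WT and -3.11 ± 1.20 in K412R vs WT, with adjusted p 0.278 and 0.16 in edgeR. In K238R vs WT the value ran from -4.51 without K238R replicate 2 to -1.79 without WT replicate 2.

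Col1a1 and Col1a2 encode the chains of type I collagen, which makes up most of the organic matrix of bone and is also a product of fibroblasts. Col1a1 stood at 982, 2044 and 455 CPM in ET, 1321, 2465 and 1459 CPM in WT, 346, 798 and 398 CPM in the libraries labelled K238R and 814, 687 and 982 CPM in K412R. Each mutant library was below each WT library, and ET overlapped every group. In edgeR its log2 fold change was -1.80 ± 0.48 in K238R vs WT (adjusted p 0.111), -1.10 ± 0.47 in K412R vs WT (adjusted p 0.191) and 0.63 ± 0.47 in WT vs ET (adjusted p 0.371). In WT vs ET the 95% interval ran from -0.39 to 1.64, and the value rested on single libraries, with 1.32 ± 0.42 without ET replicate 2 (adjusted p 0.0346). It was 0.25 when ET replicate 3 was left out and 0.30 when WT replicate 2 was, with adjusted p 0.785 and 0.747. Col1a2 was at 553, 904 and 310 CPM in ET, 696, 1140 and 743 CPM in WT, 256, 411 and 245 CPM in the libraries labelled K238R and 481, 381 and 605 CPM in K412R, the same order of groups. Its log2 fold change was -1.54 ± 0.35 in K238R vs WT, where it had the lowest adjusted p of the 31 genes in edgeR (0.0945), and -0.84 ± 0.34 in K412R vs WT (adjusted p 0.179).

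Spp1, osteopontin, is made by osteoblasts, by osteoclasts and by macrophages. It stood at 34.1, 98.1 and 37.9 CPM in ET, 144, 47.2 and 38.5 CPM in WT, 30.5, 21.3 and 17.3 CPM in the libraries labelled K238R and 67, 28.3 and 26.4 CPM in K412R. The log2 fold change in K238R vs WT was -1.76 ± 0.57 (adjusted p 0.167 in edgeR) and was -0.96 ± 0.50 without WT replicate 1, which held the highest level.

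Runx2, the transcription factor that commits cells to the osteoblast lineage, varied far less. It was at 8.64, 11.0 and 8.73 CPM in ET, 8.15, 10.9 and 7.36 CPM in WT, 6.79, 7.00 and 7.00 CPM in the libraries labelled K238R and 10.2, 7.35 and 10.8 CPM in K412R. The libraries labelled K238R lay below all others and the other groups overlapped. Its log2 fold changes in edgeR were -0.07 ± 0.18 in WT vs ET (adjusted p 0.807), -0.39 ± 0.19 in K238R vs WT (adjusted p 0.299) and 0.08 ± 0.18 in K412R vs WT (adjusted p 0.812), with 95% intervals of -0.47 to 0.33, -0.79 to 0.02 and -0.32 to 0.48. Leaving out 1 library gave -0.26 to 0.052, -0.49 to -0.20 and -0.017 to 0.27, so that the direction was not fixed in the first and last of these, and the K238R value was smallest without WT replicate 2.

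The factor that acts after Runx2, Sp7 (osterix), was at 1.19, 4.89 and 0.945 CPM in ET, 1.12, 5.30 and 2.05 CPM in WT, 0.917, 1.44 and 0.271 CPM in the libraries labelled K238R and 1.67, 0.622 and 1.35 CPM in K412R. ET replicate 2 and WT replicate 2 stood apart here too, and the groups overlapped. The log2 fold change in K238R vs WT was -1.72 ± 0.78 (adjusted p 0.278 in edgeR), and it ran from -2.29 without K238R replicate 2 to -0.90 without WT replicate 2. Bglap, osteocalcin, was at 0.512, 1.95 and 0 CPM in ET and 0.45, 0.781 and 0.856 CPM in WT, and reached at most 0.216 CPM in the libraries labelled K238R and 0.283 CPM in K412R, with 0 in 4 libraries in all. Bglap2 reached at most 0.667 CPM, and since Bglap, Bglap2 and Bglap3 are near-identical copies the split of reads between them is uncertain.

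The remaining osteoblast and osteocyte genes were Dmp1, Phex, Sost and Alpl. Dmp1, a matrix protein of osteocytes, was at 2.10, 2.48 and 0.389 CPM in ET, 2.08, 3.62 and 2.45 CPM in WT, 1.29, 1.33 and 1.57 CPM in the libraries labelled K238R and 0.836, 0.905 and 1.18 CPM in K412R, with both mutant groups below WT. Its log2 fold change in K412R vs WT was -1.50 ± 0.50 (adjusted p 0.114 in edgeR). Phex, a protease of osteocytes that controls phosphate, stayed between 1.45 and 3.06 CPM, and Sost, the osteocyte inhibitor of Wnt signalling, between 0.113 and 0.833 CPM. Alpl, tissue-nonspecific alkaline phosphatase, which is also high in ES and germ cells, lay between 22.2 and 35.4 CPM, highest in ET replicate 3 and lowest in WT replicate 3.

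**Figure D3:**
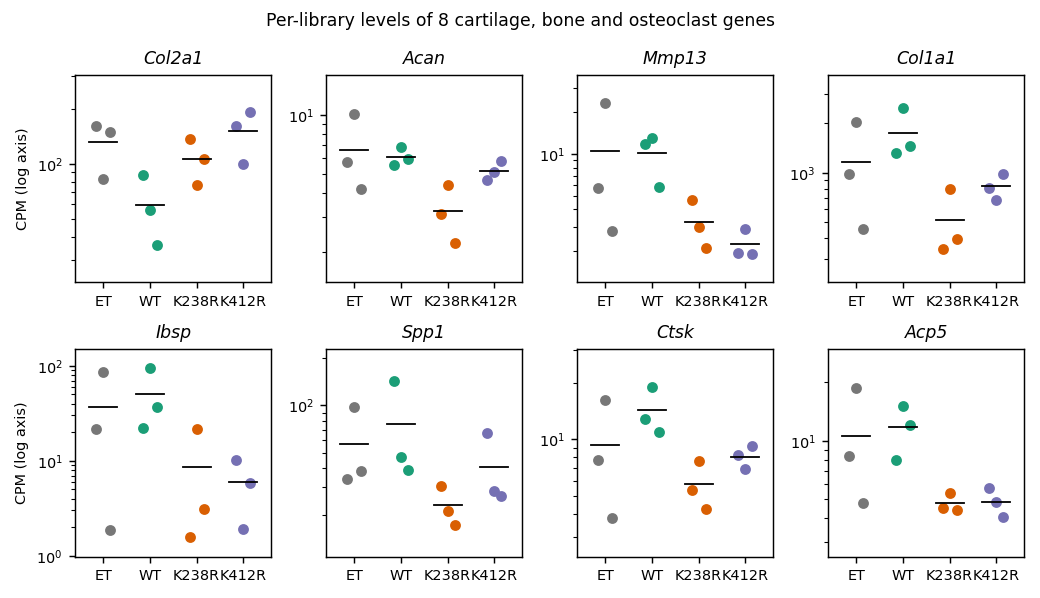
Level of 8 genes in each library in CPM on a log axis, with 1 point per library and a bar at the mean of the 3 libraries of a group. For Mmp13, Col1a1, Ibsp, Ctsk and Acp5 every K238R and K412R point lies below every WT point while the ET points spread over the range, and Col2a1 has its lowest points in WT. How many of all genes separate in this way was not counted.

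The 3 osteoclast genes of the list were high and low in much the same libraries as the bone genes. Ctsk encodes cathepsin K, the collagen-degrading protease of osteoclasts. It was at 7.73, 16.3 and 3.78 CPM in ET, 12.8, 19 and 11.0 CPM in WT, 5.34, 7.67 and 4.23 CPM in the libraries labelled K238R and 8.19, 6.90 and 9.15 CPM in K412R, so that WT lay above both mutants and ET overlapped all. In edgeR the log2 fold change was 0.65 ± 0.41 in WT vs ET (adjusted p 0.294), -1.35 ± 0.42 in K238R vs WT (adjusted p 0.159) and -0.84 ± 0.41 in K412R vs WT (adjusted p 0.25). The value in WT vs ET was 1.34 ± 0.34 without ET replicate 2 (adjusted p 0.0156). It was 0.28 when ET replicate 3 was left out and 0.39 when WT replicate 2 was, with adjusted p 0.7 and 0.624.

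Acp5, the tartrate-resistant acid phosphatase that marks osteoclasts, was at 8.36, 18.6 and 4.78 CPM in ET, 7.98, 15.2 and 12.0 CPM in WT, 4.53, 5.39 and 4.40 CPM in the libraries labelled K238R and 5.68, 4.86 and 4.04 CPM in K412R. All 6 mutant libraries lay below the WT libraries. The log2 fold change was -1.34 ± 0.41 in K238R vs WT (adjusted p 0.151 in edgeR) and -1.29 ± 0.41 in K412R vs WT (adjusted p 0.106). Mmp9, a gelatinase of osteoclasts that neutrophils and macrophages also make, was at 9.44, 36.0 and 1.89 CPM in ET, 13.3, 24.3 and 16.7 CPM in WT, 4.91, 7.67 and 5.75 CPM in the libraries labelled K238R and 6.30, 3.96 and 6.68 CPM in K412R, again with the mutants below WT. Its log2 fold change was -1.61 ± 0.70 in K238R vs WT and -1.70 ± 0.71 in K412R vs WT, with adjusted p 0.267 and 0.183 in edgeR.

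For Mmp13, a gene of the hypertrophic list, all mutant libraries lay below all WT libraries. The share of all genes with such a separation was not counted. Mmp13, collagenase 3, is made by hypertrophic chondrocytes and osteoblasts. It was at 5.69, 23.4 and 2.78 CPM in ET, 11.7, 13.0 and 5.82 CPM in WT, 4.69, 3.0 and 2.12 CPM in the libraries labelled K238R and 1.95, 2.88 and 1.91 CPM in K412R. ET replicate 2 was the highest library and the K412R libraries were among the lowest, and the log2 fold change was -1.67 ± 0.64 in K238R vs WT (adjusted p 0.217 in edgeR) and -2.18 ± 0.66 in K412R vs WT (adjusted p 0.0935).

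Col10a1, type X collagen and the defining gene of hypertrophic chondrocytes, was low throughout. It was at 0.682, 1.42 and 0.778 CPM in ET, 2.36, 1.51 and 0.342 CPM in WT, 0.539, 0.222 and 0.869 CPM in the libraries labelled K238R and 0.669, 0.283 and 0.674 CPM in K412R. The groups overlapped except that K412R lay just below ET, and on the library sizes used in the fits (TMM) K412R and ET overlapped too. In edgeR the log2 fold change was 0.56 ± 0.61 in WT vs ET (adjusted p 0.544), -1.39 ± 0.64 in K238R vs WT (adjusted p 0.286) and -1.37 ± 0.64 in K412R vs WT (adjusted p 0.228). Without WT replicate 1, the library with the highest level, these values were -0.0091, -0.82 and -0.80, and leaving out any other library gave 0.36 to 1.01 in WT vs ET. Ihh, the hedgehog ligand of prehypertrophic cells, lay between 0.836 and 3.22 CPM, and Pth1r, the receptor for parathyroid hormone and its related peptide, between 11.4 and 19.2 CPM.

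Col2a1 had its lowest group mean in WT. It encodes type II collagen, the main collagen of cartilage, and is also expressed in notochord and in parts of the embryonic nervous system. Its level was 162, 83.0 and 149 CPM in ET, 87.2, 55.8 and 36.0 CPM in WT, 137, 76.8 and 106 CPM in the libraries labelled K238R and 161, 99.2 and 192 CPM in K412R. K412R was the only group that did not overlap WT, and ET replicate 2 was the lowest ET library. In edgeR the log2 fold change was -1.12 ± 0.34 in WT vs ET (adjusted p 0.111), 0.80 ± 0.34 in K238R vs WT (adjusted p 0.257) and 1.32 ± 0.34 in K412R vs WT (adjusted p 0.0686). Without ET replicate 2 the WT vs ET value was -1.36 ± 0.32 (adjusted p 0.0129), and without WT replicate 1 it was -1.48 ± 0.35 (adjusted p 0.0434). Over all 12 omissions of 1 library this value ran from -1.48 to -0.88, and its adjusted p reached 0.379.

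Fold changes differed by chromosome. In K412R vs WT the 723 tested genes of chromosome 15, where Col2a1 and Sp7 lie, had a median log2 fold change of 0.29, and the 1074 of chromosome 1, where Col9a1 and Ihh lie, had one of -0.19. Medians of the other chromosomes lay between -0.03 and 0.06. In WT vs ET the medians were -0.12 for chromosome 15 and 0.10 for chromosome 1, and between -0.08 and 0.04 for the others. The part of the chromosome shift in the values of these genes was not tested.

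Acan encodes aggrecan, the large proteoglycan of cartilage. It did not follow Col2a1. Acan was at 5.74, 10.1 and 4.17 CPM in ET, 5.57, 6.86 and 5.99 CPM in WT, 3.13, 4.39 and 2.23 CPM in the libraries labelled K238R and 4.68, 5.09 and 5.84 CPM in K412R. The libraries labelled K238R lay below WT and the remaining groups overlapped, with ET replicate 2 highest of all. In edgeR the log2 fold change was -0.09 ± 0.31 in WT vs ET (adjusted p 0.87), -0.96 ± 0.32 in K238R vs WT (adjusted p 0.175) and -0.26 ± 0.31 in K412R vs WT (adjusted p 0.633). The WT vs ET value turned to 0.34 ± 0.27 without ET replicate 2.

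Chad, chondroadherin, a cell-binding protein of cartilage matrix that bone cells also make, had its highest group mean in WT. It stood at 1.93, 5.84 and 0.834 CPM in ET, 4.38, 6.52 and 7.25 CPM in WT, 0.755, 2.61 and 2.01 CPM in the libraries labelled K238R and 2.40, 4.01 and 3.59 CPM in K412R, with WT above both mutants. The log2 fold change in K238R vs WT was -1.80 ± 0.60 (adjusted p 0.174 in edgeR). Col11a1, a fibril collagen shared by cartilage and developing bone, was at 48.4, 62.6 and 36.5 CPM in ET, 51.8, 71.8 and 58.6 CPM in WT, 41.8, 45.8 and 45.0 CPM in the libraries labelled K238R and 43.9, 39.7 and 51.3 CPM in K412R, so that WT was again above both mutants. Its partner Col11a2 lay between 7.34 and 27.9 CPM, lowest in ET replicate 3 and highest in WT replicate 2.

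The chondrogenic transcription factors had narrow ranges. Sox6 was at 84.8, 62.3 and 71.2 CPM in ET, 59.2, 71.5 and 65.4 CPM in WT, 87.0, 90.2 and 86.3 CPM in the libraries labelled K238R and 90.2, 91.4 and 90.4 CPM in K412R, with both mutants above every ET and WT library. Its log2 fold change in K412R vs WT was 0.45 ± 0.12 (adjusted p 0.0661 in edgeR). Sox5 lay between 28.1 and 40.1 CPM, with all ET libraries below all others. On the library sizes used in the fits (TMM), these separations from ET were not complete. For Sox5, K412R replicate 3 was then at 29.1 CPM and ET replicate 1 at 29.4 CPM. For Sox6, K238R replicate 3 was at 83.6 CPM and ET replicate 1 at 83.7 CPM. Both factors are also expressed in developing neural tissue, whose markers are given below.

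Type IX collagen, which coats the type II fibrils, is made from 3 genes. Col9a1 was at 6.82, 10.6 and 3.78 CPM in ET, 7.70, 8.03 and 4.56 CPM in WT, 5.28, 7.33 and 5.37 CPM in the libraries labelled K238R and 12.3, 7.97 and 18.5 CPM in K412R, with K412R overlapping the other groups, and its log2 fold change in K412R vs WT was 0.91 ± 0.36 (adjusted p 0.169 in edgeR). Col9a2 lay between 5.67 and 18 CPM and Col9a3 between 6.25 and 10.4 CPM. Matn4, a matrilin of wider expression, lay between 6.84 and 15.0 CPM, with the mutants above ET, and Hapln1, the link protein that fixes aggrecan to hyaluronan, between 1.75 and 4.88 CPM.

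Seen by lineage, the osteoblast and osteoclast genes ordered the libraries in nearly the same way. By the mean log2(CPM + 1) of the 12 osteoblast and osteocyte genes, ET stood at 3.59 ± 0.61 (SD, n = 3), WT at 3.89 ± 0.29, the libraries labelled K238R at 3.08 ± 0.28 and K412R at 3.26 ± 0.24. For the 3 osteoclast genes ET stood at 3.30 ± 1.22, WT at 3.91 ± 0.38, the libraries labelled K238R at 2.69 ± 0.25 and K412R at 2.81 ± 0.17. Both lists had the same 5 libraries on top (WT replicate 2, ET replicate 2, WT replicate 3, WT replicate 1 and ET replicate 1) and the same 4 at the bottom (K412R replicate 2, ET replicate 3, K238R replicate 1 and K238R replicate 3). For the 3 osteoclast genes ET spanned the whole range, from 2.11 in replicate 3 to 4.54 in replicate 2. Another 14 osteoclast genes, part of the further genes given below, spread less. They summed to 203 to 249 CPM over the libraries, against 10.5 to 70.9 CPM for the 3 genes. By mean log2(CPM + 1) ET stood at 2.97, WT at 3.08, the libraries labelled K238R at 2.83 and K412R at 2.90. The 14 shared 4 of the top 5 and 3 of the bottom 4 libraries with the osteoblast genes. Among the 10 osteoblast and osteocyte genes with at least 1 CPM in some library, ET replicate 2 and WT replicate 2 were each among the 2 highest libraries for 8.

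The chondrocyte genes spread less, and other libraries were highest. By mean log2(CPM + 1), ET stood at 3.08 ± 0.24 (SD, n = 3), WT at 3.11 ± 0.12, the libraries labelled K238R at 2.98 ± 0.13 and K412R at 3.24 ± 0.09, with K412R replicate 3 highest and ET replicate 3 lowest. They shared 2 of the top 5 and 3 of the bottom 4 libraries with the osteoblast genes. For the 4 hypertrophic genes the means were 2.44 ± 0.46, 2.48 ± 0.30, 2.05 ± 0.16 and 2.01 ± 0.13 in the same order of groups, and 4 of the top 5 and 1 of the bottom 4 libraries were shared.

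**Figure D4:**
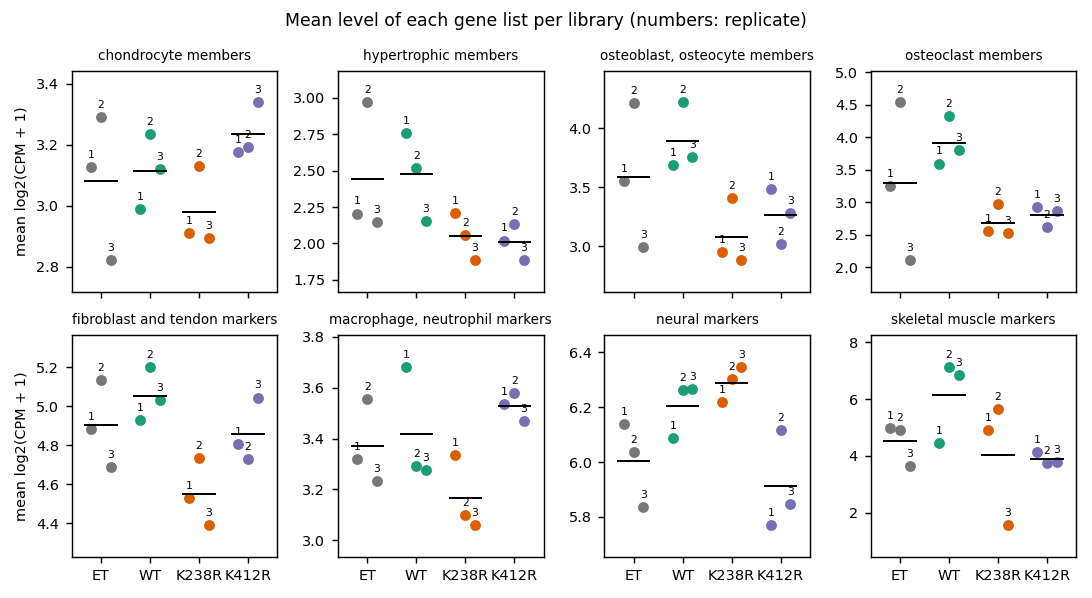
Mean log2(CPM + 1) of each list of skeletal genes and of 4 lists of markers of other cells, with 1 numbered point per library and a bar at the mean of the 3 libraries of a group. The osteoblast, osteoclast and fibroblast panels show replicate 2 highest in ET and WT and K238R replicate 3 at or near the bottom, and the neural and macrophage panels show other orders.

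Markers of other cells moved with the bone genes to different degrees. In bulk tumours fewer cells of a type and less RNA per cell cannot be told apart. All 10 fibroblast and tendon markers were detected in every library, with a summed level of 1007 to 1651 CPM in ET, 1436 to 1973 CPM in WT, 768 to 911 CPM in the libraries labelled K238R and 1068 to 1603 CPM in K412R. By mean log2(CPM + 1) they shared 4 of the top 5 and all of the bottom 4 libraries with the osteoblast genes. Single markers did not all follow this order. For Dcn every WT library lay below every ET and every K412R library, with means of 174 CPM (WT), 260 CPM (ET) and 241 CPM (K412R). Postn, Fap and Tnmd had every K412R library below every WT library. The remaining markers of this list overlapped between K412R and WT. The part of fibroblasts in the levels of Col1a1, Col1a2 and the other bone genes was not tested.

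The 8 skeletal muscle markers, all detected in every library, summed to 178 to 421 CPM in ET, 282 to 2208 CPM in WT, 22.6 to 718 CPM in the libraries labelled K238R and 231 to 238.3 CPM in K412R, and shared 4 of the top 5 and 3 of the bottom 4 libraries. Of the 12 macrophage and neutrophil markers 10 were detected in every library and 1 in none. They summed to 240 to 333 CPM in ET, 246 to 392 CPM in WT, 201 to 281 CPM in the libraries labelled K238R and 297 to 299 CPM in K412R, highest in WT replicate 1, where Spp1 was also highest, and shared 2 of the top 5 and 2 of the bottom 4. The 10 neural markers summed to 1704 to 2316 CPM in ET, 2283 to 2926 CPM in WT, 2211 to 2462 CPM in the libraries labelled K238R and 1675 to 2032 CPM in K412R, and shared 2 and 1. The 8 pluripotency and germ cell markers summed to 57.3 to 148 CPM in ET, 6.05 to 52.1 CPM in WT, 44.3 to 67.3 CPM in the libraries labelled K238R and 44.6 to 52.4 CPM in K412R, and shared 1 and 1. The part of these cells in the levels of Mmp9, Acp5, Spp1, Alpl, Sox5 and Sox6 was not tested.

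A further 70 genes of cartilage, bone and osteoclasts were examined, of which 62 were tested. Of the 62, 1 passed the threshold in WT vs ET, 1 in K238R vs WT and 2 in K412R vs WT. The shares of all genes called there were 0.0489%, 0.174% and 2.02%. In the comparisons of K238R and K412R with ET 0 passed, beside 0% of all genes in each. DESeq2 called 0 and 1 in those comparisons, beside 0.0467% and 0.506% of all genes. At an unadjusted p under 0.05, 7 of the 62 were lower and 0 higher in K238R vs ET, beside 3.08% and 2.50% of all genes, and 4 were lower and 3 higher in K412R vs ET, beside 3.48% and 4.37%. Cnmd encodes chondromodulin, a cartilage protein that inhibits blood vessel growth. Cnmd was at 3.01, 3.13 and 2.50 CPM in ET, 0.675, 0.892 and 0.513 CPM in WT, 2.97, 3.39 and 2.61 CPM in the libraries labelled K238R and 3.68, 3.11 and 4.15 CPM in K412R. All WT libraries lay below all others. Its log2 fold change was -2.02 ± 0.26 in WT vs ET (adjusted p 0.0291 in edgeR), and it rose by 2.05 ± 0.26 in K238R vs WT (adjusted p 0.0157) and by 2.36 ± 0.26 in K412R vs WT (adjusted p 0.00456). When each library was left out in turn, the first call was lost 10 times in 12 (adjusted p 0.00379 to 0.194) and the next 3 times in 12, and the call in K412R vs WT held in all 12.

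Trps1, a transcription factor of growth plate chondrocytes, was at 66.3, 46.8 and 60.4 CPM in ET, 42.6, 48.1 and 42.1 CPM in WT, 53.4, 48.6 and 51.8 CPM in the libraries labelled K238R and 62.4, 65.7 and 66.6 CPM in K412R. In K412R vs WT it rose by 0.53 ± 0.12 on the log2 scale (adjusted p 0.0441 in edgeR), a call lost 10 times in 12 when each library was left out in turn, and it lies on chromosome 15, whose median is given above. Sox9, the master factor of chondrocytes, which neural progenitors and glia also express, stayed between 57.9 and 94.6 CPM. Its log2 fold change was -0.26 ± 0.12 in WT vs ET, 0.25 ± 0.12 in K238R vs WT and 0.24 ± 0.12 in K412R vs WT, with adjusted p 0.177, 0.3 and 0.256 in edgeR. Without ET replicate 1 the first of these was -0.16, and without K238R replicate 3 the next was 0.12. Bgn, biglycan, is a proteoglycan of bone and connective tissue. It was at 162, 223 and 131 CPM in ET and 257, 226 and 193 CPM in WT. The libraries labelled K238R stood at 134, 109 and 89.8 CPM and K412R at 159, 149 and 152 CPM. Both lay below WT, and ET overlapped the other groups, the libraries labelled K238R only just. The log2 fold change in K238R vs WT was -1.06 ± 0.19 (adjusted p 0.0501 in edgeR). Leaving out 1 library gave an adjusted p from 0.00433, without ET replicate 2, to 0.230. It was 0.0333 without ET replicate 3. Bgn was singled out after its values were seen.

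At an unadjusted p under 0.05, the further genes were counted by lineage in K412R vs WT. Of 27 tested cartilage genes 7 were higher and 2 lower, of 23 bone genes 2 were higher and 7 lower, and of 12 osteoclast genes 2 were higher and 4 lower. In K238R vs WT the counts were 3 higher and 5 lower, 1 and 5, and 1 and 3. Background shares are those given above for the 31 genes, and the medians of the log2 fold change were 0.22, -0.12 and -0.09 in K412R vs WT and 0.01, -0.48 and -0.29 in K238R vs WT.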

How the data were processed

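Poly(A) RNA of 12 teratomas (4 groups of 3) was sequenced as paired-end CORALL libraries. For trimming the authors used fastp, for mapping STAR and for quantification Salmon. They deposited 1 estimated count per gene and library, in whole numbers and without normalization. GATK and the build GRCm39 are also named in the submitters' processing notes. For software versions the paper points to its Source Data, and they are not repeated here. The annotation is not given in the sources used here. The use of molecular identifiers is not stated either. The floor of 3 counts covers counting error only.

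Counts of all genes were fitted in R 4.3.3 with edgeR 4.0.16 (TMM normalization, filterByExpr, quasi-likelihood test), with 1 mean per group over all 12 libraries and 8 residual degrees of freedom. P-values were adjusted by the Benjamini-Hochberg method over the 18405 genes tested, with a threshold of 0.05, and all tests are two-sided. SE is the log2 fold change divided by the root of the F statistic. DESeq2 1.42.0, other size factors, no filter, fits of only the 2 groups compared, a replicate block, leaving out Gm26917 and leaving out each library were alternatives, as was leaving out ET replicate 2 and WT replicate 1 together, which was chosen after seeing the data. The code was tested on simulated data. Levels are CPM on the library total of 16957677 to 18546100, and lists are described by the mean of log2(CPM + 1). Chromosomes come from a RefSeq table of GRCm38.p6, which matched 96.7% of the tested genes and is not the build of the files, so it served for chromosome names and promoters only.

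Groups come from the sample titles, and nothing further says how tumours were paired or batched. The p-values therefore measure the spread between these tumours and not between separately made cell pools of a construct. The 35 genes and all lists were chosen with earlier results of these data known, and no test was made over a list. By rule, all 35 genes were named with levels, and fold changes are given for genes past the threshold and for Col2a1, Acan, Col10a1, Runx2, Col1a1, Ctsk and Sox9. Fold changes of further genes of the 35 and of Bgn were added after their values were seen.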

Additional observations from a re-analysis of the deposited data

How the results depend on the processing

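Calls among the 35 genes depended on the fit. In WT vs ET, K238R vs WT and K412R vs WT, in that order, edgeR gave 0, 0 and 0 calls, other size factors and leaving out Gm26917 did too, no filter on low counts gave 0, 2 and 1, DESeq2 gave 1, 5 and 5, fits of only the 2 groups compared gave 0, 3 and 10, and leaving out both ET replicate 2 and WT replicate 1 gave 9, 11 and 10. Beside these, the shares of all genes called were 0.624%, 0.875% and 1.98% without the filter, 10.5%, 4.13% and 9.26% in DESeq2, 0%, 2.03% and 10.7% with only the 2 groups compared, and 37.5%, 11.3% and 18.2% without both libraries. DESeq2 also gave 1 call in K412R vs ET. Leaving out each library in turn gave 0 to 9, 0 to 6 and 0 to 5 calls, and 0 against ET for both mutants. For the 70 further genes, in the same order, edgeR gave 1, 1 and 2 calls, other size factors 1, 2 and 2, leaving out Gm26917 2 in K238R vs WT, no filter 2, 3 and 4, DESeq2 2, 7 and 16, only the 2 groups compared 0, 3 and 13, leaving out both libraries 18, 10 and 20, and leaving out each in turn 0 to 15, 0 to 5 and 1 to 11. In K412R vs ET they gave 1 call in DESeq2, 2 without both libraries and 0 to 2 without each. Over all tested genes edgeR called 9, 32 and 372 and DESeq2 1871, 785 and 1649, and against ET edgeR called 0 and 0 and DESeq2 10 and 87 for K238R and K412R. The cause was not tested.

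With the replicate number as a block the calls were 1, 2 and 2 for the 35 genes and 2, 3 and 12 for the 70, beside 4.98%, 1.13% and 6.28% of all genes. The numbers were not taken to pair the samples: over 18 same-numbered pairs the correlation of deviations from group means was -0.37 to 0.53 and exceeded 0.1 in 10.

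The direction of 42 log2 fold changes held under every alternative except for Acan in WT vs ET (-0.33 to 0.34 leaving out each library, 0.43 without both), Col10a1 in WT vs ET (-0.0091 to 1.01), Runx2 in WT vs ET (-0.26 to 0.052, and 0.12 without both) and Runx2 in K412R vs WT (-0.017 to 0.27, and -0.00017 without both). Of the 16 levels by list and group, 16 stayed within 1 SD with TMM library sizes and 11 moved by more without the list's most abundant gene. Leaving out the most abundant gene lowers such a mean by construction, so the 11 say nothing about differences between groups. With 3 libraries per group, genes with few counts, such as Bglap, Sost and Col10a1, had standard errors of 0.61 to 1.37 on the log2 scale.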
